A study of Schizosaccharomyces pombe with 9 samples.

Results

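Poly(A)+ RNA of fission yeast lacking Snf22, the ATPase of the chromatin remodeler SWI/SNF, was compared with that of the wild type across all annotated genes. The comparison took the 3 libraries labelled snf22 knockout and the 3 labelled WT, chosen by those labels out of 9 libraries in the series, and 6091 of 6988 counted genes had enough reads to be tested, 4990 coding and 1101 non-coding. The mutant strain is labelled h- snf22∆::kanMX. In it, kanMX, a drug resistance marker, replaced the first and larger part of the snf22 reading frame and left the last part in place. The strain was recovered as haploid progeny of a diploid. The strain list of the study gives its snf22∆::kanMX single mutant as h+, so the mating type of the mutant is uncertain here. The WT strain is labelled h- and has an intact snf22 gene. No marker is named for it, so effects of kanMX and of the deletion cannot be told apart. Each genotype is represented by a single strain, and the labels call the 3 replicates of each biological. The cultures of both grew vegetatively in YES, a rich medium of yeast extract and glucose, at 30°C and were taken in log phase. The remaining 3 libraries came from the strain labelled h- snf22-(D996A-E997A)::kanMX, which also carries kanMX. It has alanine in place of acidic residues of the ATPase active site. These libraries are used here only to share the estimate of spread and for a brief comparison.

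SWI/SNF is a multi-subunit complex that uses ATP to slide or evict nucleosomes and so changes the access of transcription factors and RNA polymerase to DNA. In budding yeast it takes its name from mutants that could not switch mating type or ferment sucrose, and it acts both in activation and in repression. Fission yeast has several other remodelers, such as RSC, which contains a different ATPase, Snf21.

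The snf22 transcript had 1471, 1379 and 1222 normalized counts in snf22∆, against 2835, 2779 and 2738 in WT (log2 fold change -1.04, SE 0.09, adjusted p = 3.57e-06). Every snf22∆ library lay below every WT library, although the log2 fold change of snf22 was -0.967 without snf22∆ replicate 3, short of 2-fold, and the part of the reading frame that the deletion left in place can still give reads. On either side of snf22, SPCC1620.13 had a log2 fold change of 0.99 (SE 0.13) and wtf24 of 0.54 (SE 0.15), and neither reached the 2-fold required for a call. By the study's strain list, all strains carry mutant alleles of leu1, ura4, his3 and ade6, and the ade6 allele can differ between strains. Of these marker loci, ura4 had 0 counts in all libraries, while leu1, his3 and ade6 had log2 fold changes of -0.23, -0.63 and -0.60. The M-cell gene mfm2 fell, as described further on, and the lower-count M-factor genes mfm1 and mfm3 had log2 fold changes of -1.21 and -1.27. For mam1, the M-factor exporter gene of M (h-) cells, the counts were 2135, 1866 and 1703 in snf22∆, against 2299.7, 2457 and 2411 in WT. The P-cell gene map3 also had counts in both strains, at 374, 397 and 369.8 in snf22∆, against 409, 380.3 and 397 in WT, and the mat1-Mc and mat1-Mi entries had 0 counts in every library. Of 7 genes set as cell type markers, mam2 and map2 are not reported here.

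Library totals ranged from 19526308 to 22664218 counts in snf22∆ and from 15696972 to 21612099 in WT. By 1 measure WT replicate 2 stood apart. The chi-square per gene between it and the other WT libraries was 70.8 and 59.2, against 9.20 between WT replicates 1 and 3 and 7.004 to 18.4 among the snf22∆ libraries. That measure scaled counts by library totals alone, while the fit gave WT replicate 2 the lowest scaling factor, 0.8861, against 0.9635 and 0.9985. The study's correlations between pairs of WT libraries were close to each other. Several results that rest on WT replicate 2 are given with their value without it. Normalized counts below are read counts scaled to a common effective library size, and log2 fold changes are snf22∆ over WT.

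In snf22∆, 111 coding genes were called higher and 111 lower than in WT. Genes were called where the adjusted p was 0.05 or less, the strains differed 2-fold or more, and the strain with more reads averaged 100 normalized counts or above. Called genes made up 2.22% of the 4990 coding genes in each direction, the share to set beside the list counts below. By the adjusted p alone, 1671 coding genes (33.5%) were higher and 1230 (24.6%) lower, so most of the measurable differences were under 2-fold. The rises included 22 genes of at least 4-fold and 12 of at least 8-fold, with a median log2 fold change of 1.28, and the falls 26 and 10, with a median of -1.42. The libraries of the strains did not overlap in 110 of 111 called genes in either direction. The thresholds of a call themselves favor such genes, and the share over all coding genes is not given here, so the count is no added support. The exceptions were SPCC338.18, with 218, 152 and 92.5 in snf22∆, against 60.5, 104 and 64.8 in WT, and spc24, with 285, 307 and 465 in snf22∆, against 382, 737 and 1504 in WT. WT replicate 2 was the highest WT library at 87 of the 111 lower genes, and without it 87 genes were called higher and 95 lower. Without WT replicate 3, 189 were called higher, 104 of them among the 111; of the 85 added, 83 had WT replicate 3 as the highest WT library, and their median log2 fold change with all libraries was 0.90, just short of 2-fold. In RNA from whole cultures, fewer cells expressing a gene and less RNA per cell cannot be told apart.

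**Figure D1:**
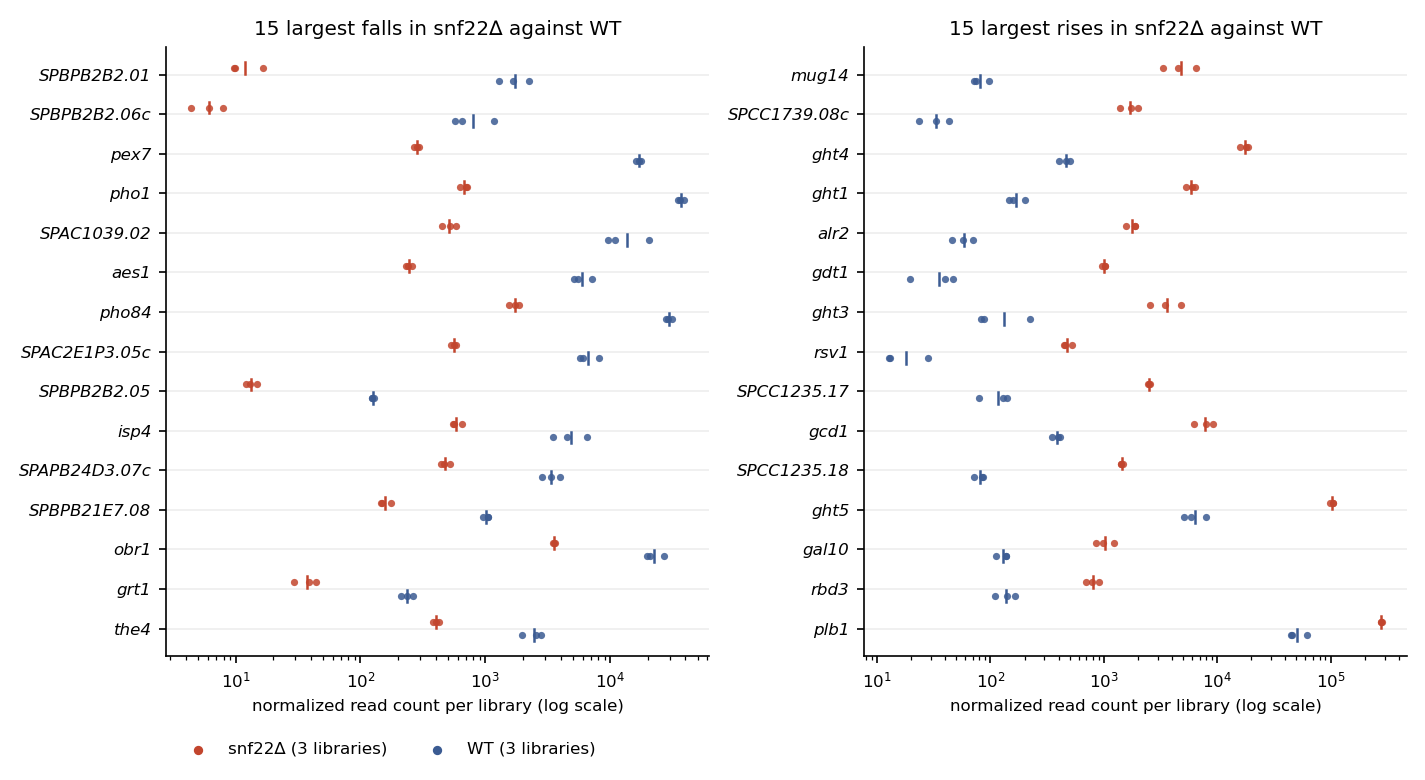
Normalized read count per library (log scale, horizontal axis) of the 15 coding genes with the largest falls (left panel) and the 15 with the largest rises (right panel); points are the 3 snf22∆ and the 3 WT libraries and vertical ticks their means. In every gene shown the libraries of the strains are separate, from 142-fold apart at SPBPB2B2.01 to 5.56-fold at plb1 by the fitted change.

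Genes of phosphate acquisition were among the deepest falls. Fission yeast takes up phosphate through a cell surface acid phosphatase, phosphate transporters and extracellular nucleotidases, whose genes are induced by phosphate starvation through the transcription factor Pho7; the YES medium used here supplies phosphate. Of 9 listed genes, 5 were called lower and none higher, with a list median of -1.09, against 0.02 over all genes tested. The acid phosphatase gene pho1 had 624, 694 and 709 normalized counts in snf22∆, against 39193, 34696 and 35983 in WT (log2 fold change -5.76, SE 0.15, adjusted p = 1.97e-10). The adjacent phosphate transporter gene pho84 had 1866, 1725 and 1542 normalized counts in snf22∆, against 31212, 27879 and 29242 in WT (log2 fold change -4.10, SE 0.11, adjusted p = 2.64e-10). At both genes the 3 WT libraries were within a narrow band and the snf22∆ libraries far below it.

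SPBPB2B2.06c and SPAC1039.02 encode secreted 5'-nucleotidases, enzymes that release phosphate from nucleotides. SPBPB2B2.06c was close to silent in the mutant, with 4.37, 6.07 and 7.87 normalized counts in snf22∆, against 644, 1183 and 572 in WT (log2 fold change -7.02, SE 0.43, adjusted p = 2.81e-07). SPAC1039.02 had 446, 518 and 577 normalized counts in snf22∆, against 9628, 20288 and 10911 in WT (log2 fold change -4.73, SE 0.26, adjusted p = 1.01e-07), and WT replicate 2 was well above the other WT libraries there. The phosphate transporter gene pho841, which lies elsewhere on chromosome II, fell by far less (-1.09 (SE 0.09)). The remaining listed genes were not called: tgp1, the glycerophosphodiester transporter gene, was at -0.53, the acid phosphatase gene pho4, which is controlled by thiamine, at -0.37, and the transporter gene pho842 at 0.26. The gene of Pho7 itself was at 3143, 3166 and 3209 in snf22∆, against 3243, 3770.4 and 3067 in WT (log2 fold change -0.08, SE 0.08, adjusted p = 0.414).

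The steepest rises as a group were at hexose transporters. Fission yeast has a family of ght genes for sugar:proton symporters, of which ght5 is the main high-affinity glucose carrier and ght3 carries gluconate. Of the 8 tested, 4 were called higher and none lower, with a list median of 2.39. The most abundant, ght5, had 104496, 105401 and 99660.0 normalized counts in snf22∆, against 5141, 7913 and 5928 in WT (log2 fold change 4.03, SE 0.17, adjusted p = 1.55e-08). ght1 had 6414, 6028 and 5339.6 normalized counts in snf22∆, against 145, 203 and 159.5 in WT (log2 fold change 5.13, SE 0.12, adjusted p = 9.36e-11), and ght4 18598, 17798 and 16039.5 in snf22∆, against 405, 506 and 468 in WT (log2 fold change 5.25, SE 0.11, adjusted p = 3.94e-11). At ght3, which had 4790.1, 3486 and 2540.5 in snf22∆, against 87.8, 221 and 83.0 in WT (log2 fold change 4.78, SE 0.35, adjusted p = 1.40e-06), the 3 mutant libraries spread over almost 2-fold and WT replicate 2 was above the other WT libraries. The remaining 4 were not called: ght7 was at 0.75, ght8, the neighbor of ght1, at 0.27, ght2 at -0.48 and ght6 at -0.50.

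The galactose genes gal1, gal7 and gal10, which encode galactokinase, the uridylyltransferase and the epimerase of galactose breakdown, all rose. gal10 had 1226, 861 and 984 normalized counts in snf22∆, against 112, 139 and 137 in WT (log2 fold change 2.99, SE 0.17, adjusted p = 1.60e-07), while gal7 and gal1 rose by 2.09 (SE 0.12) and 2.01 (SE 0.13) on the log2 scale. The list's other member, the melibiase gene mel1, passed the p and fold thresholds at 1.46 (SE 0.37) but had too few counts to be called. Among 9 genes of gluconate and pentose phosphate metabolism, 2 were called higher. The glucose dehydrogenase gene gcd1, whose enzyme opens a route from glucose to gluconate, had 9271, 7981 and 6234 normalized counts in snf22∆, against 348, 395 and 409 in WT (log2 fold change 4.35, SE 0.16, adjusted p = 3.07e-09). gnd1, for 6-phosphogluconate dehydrogenase, had 119625, 105538 and 88902 in snf22∆, against 39885, 37801 and 37970.1 in WT (1.44 (SE 0.11)). The phosphoketolase gene SPBC24C6.09c fell (-1.43 (SE 0.25)), while zwf1, for the step at the head of the oxidative pathway, was at -0.33, and idn1, for gluconokinase, at 0.48.

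Of 14 genes that glucose represses or that act in that control, 5 were called higher and 1 lower. The regulators scr1 and rsv1 were among them. Scr1 is a zinc finger repressor that holds glucose-repressed genes down when glucose is plentiful; it had 6403, 7043 and 6977 normalized counts in snf22∆, against 2277, 2441 and 2329 in WT (log2 fold change 1.54, SE 0.08, adjusted p = 6.38e-08). The related repressor gene rsv1 had 526, 443 and 459 normalized counts in snf22∆, against 12.7, 28.4 and 13.0 in WT (log2 fold change 4.72, SE 0.25, adjusted p = 8.92e-08), with few counts in WT. The glucosidase gene SPAC4H3.03c rose by 2.20 (SE 0.22), the gluconeogenic fructose bisphosphatase gene fbp1 by 1.43 (SE 0.17) and the external invertase gene inv1 by 1.04 (SE 0.18). WT replicate 2 was the highest WT library at all 5, and the count without it was also 5. mae2, for malic enzyme, was lower at -1.45 (SE 0.10). rst2, for the activator opposed by Scr1 at fbp1, was at 4834, 5092 and 5168 in snf22∆, against 4545, 5773 and 4559 in WT; its log2 fold change of 0.02 was near 0 and took either sign with the scaling. The co-repressor genes tup11 and tup12 were at 0.12 and 0.06.

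Glycerol genes moved in opposite directions. gld1 and dak1, for the glycerol dehydrogenase and dihydroxyacetone kinase of glycerol assimilation, rose by 1.21 (SE 0.13) and 1.01 (SE 0.08), dak1 barely past 2-fold and not called under 5 of 12 alternative settings. gut2, for mitochondrial glycerol-3-phosphate dehydrogenase, had 394, 391 and 386 normalized counts in snf22∆, against 1302, 2158 and 1179 in WT (-1.99 (SE 0.19)), and the alcohol dehydrogenase gene adh4 fell by 1.66 on the log2 scale. Among 16 genes of glycolysis and fermentation only pdc201, a pyruvate decarboxylase gene, was called (1.15 (SE 0.14)), and 2 were without snf22∆ replicate 3 or WT replicate 1. The phospholipase B gene plb1 had 280065, 286193 and 277359 normalized counts in snf22∆, against 44644, 61452 and 45732 in WT (log2 fold change 2.47, SE 0.14, adjusted p = 1.89e-07). In the lipid and sterol list the thioesterase gene the4 (-2.60 (SE 0.13)) and the sterol desaturase gene erg31 (-1.35 (SE 0.09)) were lower.

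**Figure D2:**
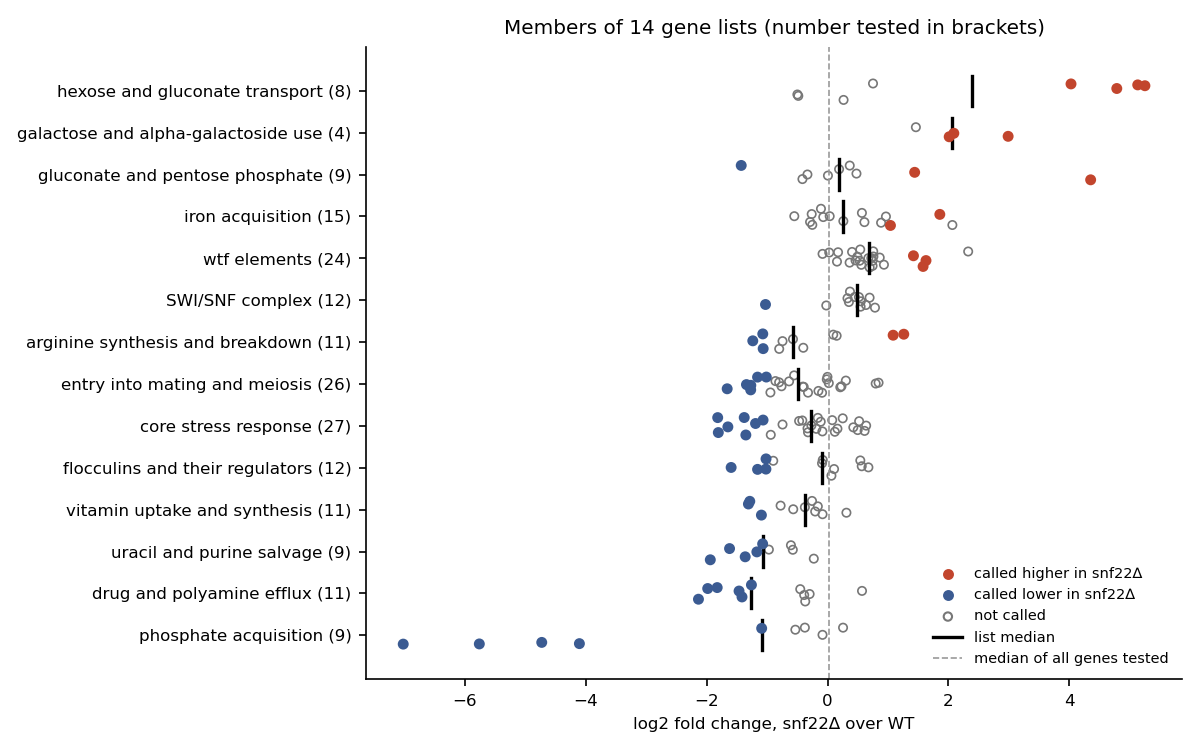
Log2 fold change (snf22∆ over WT, horizontal axis) of every tested member of 14 gene lists, with filled points for called genes, open points for the others, a black bar at each list's median and a dashed line at the median of all genes tested. The hexose transport list has the highest median, 2.39, and the list of drug and polyamine efflux the lowest, -1.26, while the phosphate acquisition list holds the lowest single values.

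Membrane transporters were frequent among the lower genes. Of 154 genes described as a transmembrane transporter or permease, a set that leaves out the sugar symporters, 22 were called lower (14.3%) and 6 higher (3.90%), against 2.22% of coding genes in each direction. WT replicate 2 was the highest WT library at 18 of the 22, and without it the lower count was 17. The 6 include gti1, which encodes an inducer of gluconate transport rather than a carrier (1.52 (SE 0.10)). The amino acid permease gene SPBPB2B2.01 showed the largest fall of any called gene, with 9.62, 16.5 and 9.84 normalized counts in snf22∆, against 1658, 2222 and 1297 in WT (log2 fold change -7.15, SE 0.28, adjusted p = 6.95e-09). Among 30 amino acid transporters, 5 were lower and 3 higher. WT replicate 2 was the highest WT library at all 5, and without it the lower count was 4. The lower ones included the cysteine transporter genes SPBPB10D8.01 (-2.31 (SE 0.13)) and SPCPB1C11.03 (-2.28 (SE 0.11)), and SPAC1039.01 (-1.52 (SE 0.12)). The higher ones were isp5 (1.58 (SE 0.12)), SPCC794.03 (1.34 (SE 0.13)) and meu22 (1.247 (SE 0.15)).

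Uptake of other nitrogen sources followed no common direction. isp4, for an oligopeptide transporter induced by nitrogen starvation, had 644, 556 and 554 normalized counts in snf22∆, against 6566, 3509 and 4481 in WT (log2 fold change -3.05, SE 0.19, adjusted p = 3.31e-07), and SPBC23G7.13c, for a urea transporter, had 27.1, 44.2 and 59.0 in snf22∆, against 219, 335 and 219 in WT (-2.57 (SE 0.36)). The branched-chain aminotransferase gene eca39 fell by 1.50 on the log2 scale. In contrast, amt3, for an ammonium transporter, rose by 1.13 (SE 0.22). The list of nitrogen use had 2 genes called higher, amt3 and isp5, and 1 without WT replicate 1. The other 15 of its 20 genes were not called, among them the regulator gene gaf1 at -0.09.

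Arginine genes separated by pathway. The called genes for synthesis fell: arg12, for argininosuccinate synthase, had 10313, 11264 and 11464 normalized counts in snf22∆, against 23480.2, 30876 and 23497 in WT (-1.24 (SE 0.12)), and arg4 and arg5, for the subunits of carbamoyl phosphate synthase, were at -1.07 (SE 0.13) and -1.06 (SE 0.16). The called genes for breakdown rose: the arginase gene car1 had 1808, 1756 and 1503 normalized counts in snf22∆, against 738, 745 and 629 in WT (1.26 (SE 0.10)), and the other arginase gene, aru1, was at 15408, 15096 and 12893 in snf22∆, against 8349, 4946 and 7157 in WT (1.09 (SE 0.17)). The remaining 6 of the 11 were not called. These calls leaned on WT replicate 2, which was the highest WT library at arg12, arg4 and arg5 and the lowest at aru1; without it only 1 of the list was called lower and 1 higher, with arg4 at -0.97 and aru1 at 0.87.

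In salvage of pyrimidines and purines 5 of 9 genes were called lower, none higher and a median of -1.07. The neighboring genes SPAC1002.16c, a carboxylic acid transporter gene, urg2, for uracil phosphoribosyltransferase, and urg3, which responds to uracil, were at -1.94 (SE 0.19), -1.36 (SE 0.27) and -1.07 (SE 0.18). urg2 varied strongly between replicates, with 2986, 5414 and 6188 in snf22∆, against 9934, 16568 and 10989.8 in WT. The cytosine deaminase gene SPCC965.14c fell by 1.62 and the adenine deaminase gene dea2 by 1.17 on the log2 scale. WT replicate 2 was the highest WT library at all 5, of which urg3 fell short of 2-fold without it, at -0.90.

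Some vitamin carriers were lower too: the thiamine transporter gene thi9 (-1.31 (SE 0.13)), the biotin transporter gene vht1 (-1.29 (SE 0.07)) and SPCC965.13, for a pyridoxal-type carrier (-1.09 (SE 0.07)), while the 8 other genes of that list, including the thiamine synthesis gene nmt1 at 0.31, were not called. Of 11 genes for drug and polyamine efflux, 6 were called lower and none higher (1 without WT replicate 2), with a median of -1.26. The lower count without WT replicate 2 was 5. mfs3, for a spermidine transporter, had 2699.9, 2549.9 and 2521 normalized counts in snf22∆, against 12559, 10257 and 11320.5 in WT (log2 fold change -2.14, SE 0.09, adjusted p = 6.95e-09), and bfr1, for the carrier that confers brefeldin A resistance, had 2119.9, 2214 and 2064 in snf22∆, against 7632, 10082 and 7572 in WT (-1.98 (SE 0.20)). The spermidine family gene SPCC569.05c was at -1.83 (SE 0.21) and SPBC36.01c at -1.46 (SE 0.09).

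The zinc transporter gene zrt1 had 2224, 2501 and 2308 normalized counts in snf22∆, against 4286, 5472 and 4333 in WT and stood at the 2-fold limit (-1.002 (SE 0.09)), and 6 of 12 alternative settings put it under the limit. Of 15 iron acquisition genes, 2 were called higher and none lower, but the higher count was 1 without snf22∆ replicate 1 or WT replicate 3, 3 without WT replicate 2 and 4 without snf22∆ replicate 3. The iron oxidase gene fio1 had 1624, 1212 and 983 normalized counts in snf22∆, against 397, 347 and 306 in WT (log2 fold change 1.86, SE 0.17, adjusted p = 9.99e-06), and abc3, for a vacuolar heme exporter, was at 1.04 (SE 0.15). The heme transporter gene str3 passed p and fold at 2.065 (SE 0.68) but had too few counts to be called. The repressor genes of iron uptake and iron use, fep1 and php4, were at -0.55 (SE 0.09) and 0.26 (SE 0.11).

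Some genes that start the sexual program were lower, among them ste11 and mei2. In fission yeast, nitrogen starvation induces the transcription factor Ste11, which turns on mating genes and mei2, the RNA-binding protein that commits cells to meiosis; the cultures here were growing in rich medium. Of 26 listed genes, 7 were called lower and none higher (1 without WT replicate 3). By the adjusted p alone 16 were lower and 4 higher, against 24.6% lower and 33.5% higher over all coding genes. ste11 had 1817, 1503 and 1409 normalized counts in snf22∆, against 3630.1, 4271 and 3502 in WT (log2 fold change -1.27, SE 0.12, adjusted p = 1.14e-05). mei2 had 711, 596 and 548 normalized counts in snf22∆, against 2030.3, 1809 and 2028 in WT (log2 fold change -1.66, SE 0.10, adjusted p = 1.86e-07), and pac2, whose product restrains ste11, had 3710.4, 3840.1 and 3923 in snf22∆, against 8813, 11449 and 8809.7 in WT (-1.34 (SE 0.10)). The nutrient signaling genes gpa2, for a glucose-sensing G protein subunit, and igo1, for a phosphatase inhibitor, were at -1.30 and -1.27, and the mating MAP kinase gene spk1 at -1.01. Of the M-factor pheromone genes, mfm2 had 619, 435 and 343 normalized counts in snf22∆, against 1880.0, 1818 and 1579.6 in WT (log2 fold change -1.91, SE 0.18, adjusted p = 9.30e-06); these genes are near-identical copies, so the split of reads between them is uncertain. Without WT replicate 2 the count of the list was also 7. At later steps, mei4, for a meiotic transcription factor, was at 0.80 and fus1, for a formin of cell fusion, at 0.84, and neither was called.

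Stress genes were partly lower. Of 27 genes of the core environmental stress response, 7 were called lower, and of 18 genes of the oxidative stress response under Pap1, 4. Catalase, encoded by ctt1, had 2282, 2329.7 and 2190.3 normalized counts in snf22∆, against 5715, 10151 and 5461 in WT (log2 fold change -1.65, SE 0.19, adjusted p = 5.71e-05). ecl3 and ecl1, which extend chronological lifespan when overexpressed, were at -1.82 (SE 0.15) and -1.38 (SE 0.23), and sro1 at -1.81 (SE 0.27). obr1, a quinone reductase gene and Pap1 target, had 3596, 3459 and 3529.9 normalized counts in snf22∆, against 20896, 26722 and 19714 in WT (log2 fold change -2.67, SE 0.11, adjusted p = 6.95e-09), and pgt1, for a glutathione transporter, was at -1.72 (SE 0.13). WT replicate 2 was the highest WT library at 6 of the 7 core stress genes, and without it 5 of the list were called, against 4 of the Pap1 list, as with all libraries. The transcription factor genes atf1 and pap1 were at -0.42 (SE 0.20) and -0.04 (SE 0.08). The heat shock genes hsp16, hsp104 and hsp9 had values above 0, at 0.61, 0.43 and 0.52, and were not called.

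A single peroxin gene stood out. pex7, whose product is the receptor that brings a class of enzymes into peroxisomes, had 295, 267 and 284 normalized counts in snf22∆, against 16969.6, 17612 and 16055 in WT (log2 fold change -5.90, SE 0.09, adjusted p = 1.71e-12). The replicates of either strain were close together. The other 11 peroxin genes tested were between -0.38 (pex11) and 0.63 (pex22), and none was called. A non-coding RNA that overlaps pex7 on the same strand, SPNCRNA.1018, rose, with 281, 316 and 307 normalized counts in snf22∆, against 132, 167 and 99.9 in WT (1.18 (SE 0.17)).

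Centromere and origin genes also held a few falls among many small positive values. abp2, for a protein that may bind replication origins, had 551, 631 and 588 normalized counts in snf22∆, against 3004, 3609 and 2805 in WT (log2 fold change -2.41, SE 0.11, adjusted p = 3.08e-08), and its divergent neighbor cnp3, for the CENP-C protein of the kinetochore, had 199, 238 and 269 in snf22∆, against 818, 641 and 962 in WT (-1.78 (SE 0.16)). spc24, an Ndc80 complex gene, was at -1.31 (SE 0.38), but its WT libraries, given above, were far apart and its value without WT replicate 3 was -0.67. The other 14 of the 17 genes lay between -0.28 (mal2) and 0.80 (ndc80).

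At the cell surface, 5 of 14 glycoprotein genes and 4 of 12 genes of flocculins and their regulators were called lower and none higher, with pfl7, pfl8 and pfl9 in both lists. Without any 1 of the WT libraries the lower counts were 4 and 3. pfl8, for a flocculin, had 256, 249 and 255 normalized counts in snf22∆, against 732, 833 and 730.1 in WT (-1.59 (SE 0.11)), and pfl7 and pfl9 were near the 2-fold limit at -1.02 (SE 0.18) and -1.02 (SE 0.17). cbf12, for an activator of cell adhesion, was at -1.16 (SE 0.10), and mbx2, for another activator of flocculins, at 0.57 (SE 0.10). eng1, for the glucanase that splits daughter cells, had 5919.6, 6066 and 5986 normalized counts in snf22∆, against 15243, 15790.2 and 13882 in WT (-1.32 (SE 0.14)). The eisosome gene fhn1 was at -1.47 (SE 0.27) and pmp3, for a plasma membrane proteolipid, at -1.503 (SE 0.17).

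Several of the largest rises fell outside these groups. mug14, annotated as an adducin, had 6554, 4474 and 3316 normalized counts in snf22∆, against 71.3, 97.6 and 75.2 in WT (log2 fold change 5.88, SE 0.30, adjusted p = 6.38e-08). The short chain dehydrogenase gene SPCC1739.08c had 1999, 1738 and 1399.6 normalized counts in snf22∆, against 23.4, 32.9 and 42.8 in WT (log2 fold change 5.72, SE 0.20, adjusted p = 2.21e-09). alr2, for alanine racemase, was at 1869.7, 1868 and 1579.6 in snf22∆, against 45.9, 57.9 and 70.0 in WT (log2 fold change 4.95, SE 0.14, adjusted p = 5.37e-10). gdt1, for a Golgi calcium and manganese antiporter, had 971, 1017 and 1029.8 normalized counts in snf22∆, against 46.9, 39.7 and 19.5 in WT (log2 fold change 4.79, SE 0.21, adjusted p = 1.67e-08), and the mitochondrial rhomboid protease gene rbd3 was at 2.53 (SE 0.16). The subtelomeric helicase gene tlh2 had 128, 127 and 124 in snf22∆, against 9.76, 32.9 and 61.0 in WT (1.92 (SE 0.44)), but near-identical copies of it exist and its WT libraries were far apart. The wtf elements, a family of meiotic drivers and their relatives, had 3 of 24 called higher, wtf5 (1.63 (SE 0.13)), wtf22 (1.58 (SE 0.22)) and wtf20 (1.42 (SE 0.26)), with a list median of 0.69; they also share sequence, so the split of reads is uncertain.

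Among the largest falls, aes1, annotated in the phenazine biosynthesis family, had 230.1, 259 and 240.0 normalized counts in snf22∆, against 5154, 7189 and 5494 in WT (log2 fold change -4.61, SE 0.25, adjusted p = 8.92e-08). SPAC2E1P3.05c, for a protein with a cellulose binding domain, had 582, 564 and 532 normalized counts in snf22∆, against 5772, 8099 and 6003 in WT (log2 fold change -3.56, SE 0.13, adjusted p = 3.58e-09). SPAPB24D3.07c, specific to S. pombe, was at -2.83 (SE 0.14). Of 90 genes described as a protein kinase, only ppk1 (-2.14 (SE 0.12)) was called (1.11%). Also called were spk1 above and hri1, for an eIF2 alpha kinase (1.40 (SE 0.11)), whose descriptions word it otherwise. Among 110 genes of DNA-binding or general transcription factors, 5 were lower (4.55%) and 4 higher (3.64%), against 2.22% of coding genes in each direction. The largest falls were at grt1 (-2.67 (SE 0.19)) and hsr1 (-1.35 (SE 0.09)). The 4 higher were rsv1 and scr1, the TFIIH subunit gene tfb5 (1.12 (SE 0.18)) and SPBC1348.12 (1.09 (SE 0.23)).

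Large housekeeping groups shifted by less than 2-fold. Of 135 cytosolic ribosomal protein genes, 115 were lower by the adjusted p, 1 was higher and none was called, with a median of -0.45. Mitochondrial ribosomal protein genes had a median of 0.29 (76 tested, none called). Splicing genes had a median of 0.45 (97 tested), with 3 called higher (3.09%, against 2.22% of coding genes). The splicing calls, uap2, cwf16 and lin1, depended on single libraries: the count was 0 without WT replicate 2 and 8 without WT replicate 3. The median of all coding genes was 0.06. In the SWI/SNF complex itself, 9 of 12 genes were higher by the adjusted p without reaching 2-fold, among them snf5 (0.78 (SE 0.10)), ssr1 (0.70 (SE 0.10)) and ssr3 (0.64 (SE 0.15)); snf22 was lower, and sol1 was at -0.02 (SE 0.07). Among 7 genes of RSC, 3 were higher and 1 lower by the adjusted p, among 11 of other remodelers 8 and 1, and among 21 of heterochromatin and RNA interference 10 and 2, in each case short of a call. Over all coding genes, 33.5% were higher and 24.6% lower by the adjusted p, and each of these lists had a larger share higher. Their medians were 0.485 for SWI/SNF, 0.228 for RSC, 0.418 for other remodelers and 0.31 for heterochromatin and RNA interference. Splicing genes, outside chromatin, also had a larger share higher by the adjusted p, 54 of 97. The cause of these small shifts was not tested.

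Among the called coding genes, 30 pairs were next to each other, and in 26 of these both genes changed in the same direction, 16 in tandem, 9 divergent and 1 convergent. The remaining 4 pairs changed in opposite directions: mug14 rose and its neighbor pho841 fell, abc3 rose and pfl7 fell, isp3 rose and pfl8 fell, and SPBPB7E8.02 rose (1.65 (SE 0.12)) and SPBPB7E8.01 fell (-1.09 (SE 0.10)). Of 211 tested neighbors of genes called higher, 26 (12.3%) were higher and 4 (1.90%) lower, and of 211 of genes called lower, 4 were higher and 26 lower, against 2.16% in each direction over all 9778 such neighbors. With at most 1 other coding gene between members, 7 runs of 3 or more genes changed in a common direction.

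The chromosome II ends held 3 of these runs. At the right end, 6 genes from SPBPB2B2.06c inward to ecl3 were lower: SPBPB2B2.06c, the amidotransferase gene SPBPB2B2.05 (-3.22 (SE 0.22)), SPBPB2B2.01, pho1, pho84 and ecl3. Within that stretch the sterol deacetylase gene say1 was at -0.22 (SE 0.25) and not called, and fub2 had too few counts to test. Nearer to the end, gal7, gal10 and gal1 were higher, with tgd1 between them at 0.66 (SE 0.21). At the left end, aes1, the pseudogene SPBPB21E7.08 (-2.69 (SE 0.11)), the asparaginase gene SPBPB21E7.09 (-1.04 (SE 0.09)) and the cysteine transporter gene SPBPB10D8.01 were lower. Counting the 30 outermost annotated coding genes of each end, 6 of 31 tested on chromosome II were called higher (19.4%) and 11 lower (35.5%), against 1.85% and 2.08% of the rest of that chromosome. On chromosome I, 1 of 26 tested was called in each direction (3.85%), against 2.1% higher and 2.05% lower of its rest. On chromosome III, 0 of 58 were higher and 4 lower (6.9%), against 2.82% and 1.41% of its rest.

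**Figure D3:**
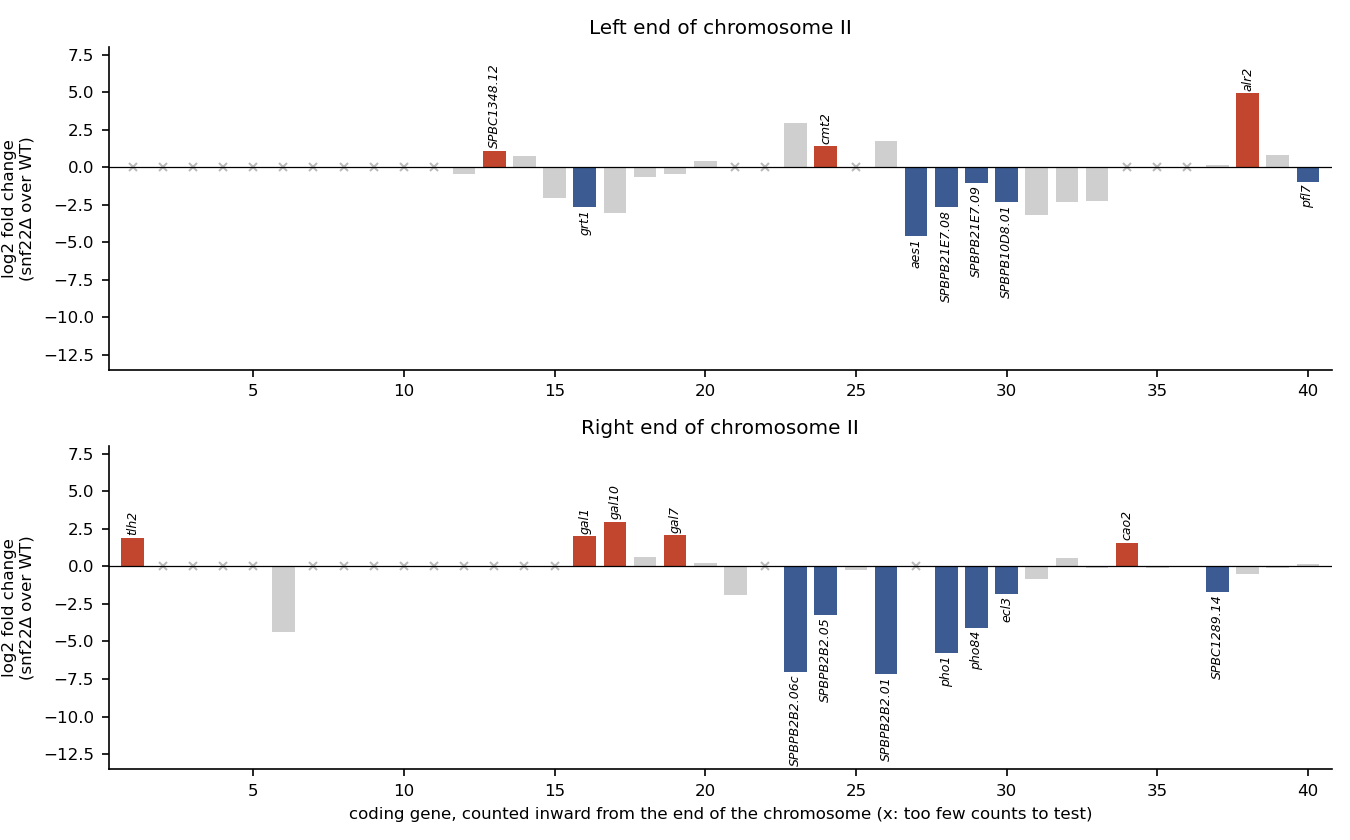
Log2 fold change (snf22∆ over WT, vertical axis) of the 40 outermost coding genes of each end of chromosome II, in gene order counted inward from the end (horizontal axis); red bars are called higher, blue bars called lower, gray bars not called, and crosses mark genes with too few counts to test. The lower panel shows gal1, gal10 and gal7 higher beside the lower stretch from SPBPB2B2.06c to ecl3, and say1 inside that stretch near 0.

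The other runs were internal. On chromosome II, SPBC1271.10c (-1.15 (SE 0.18)), SPBC1271.08c (-2.37 (SE 0.18)) and SPBC1271.07c (-1.55 (SE 0.14)) were lower on either side of tgp1, which was not called. On chromosome III, the dubious genes SPCC1235.17 and SPCC1235.18, next to ght5, rose with it. SPCC1235.17 had 2494, 2477 and 2534 normalized counts in snf22∆, against 129, 79.5 and 139 in WT and SPCC1235.18 had 1429, 1470.5 and 1409 in snf22∆, against 72.2, 85.1 and 86.9 in WT. Near by, ght1, gcd1, wtf5 and SPCC794.03 rose, with the transporter gene SPCC1529.01 among them at 0.39 (SE 0.13). The run on chromosome I was that of SPAC1002.16c, urg2 and urg3 above. The strand setting of the counting is not given in the sources used here, so reads of overlapping genes cannot be told apart with certainty.

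Among non-coding RNAs, 45 of 1101 tested were called higher (4.09%) and 77 lower (6.99%). The rises were more frequent among the 347 intergenic RNAs, with 24 higher (6.92%) and 12 lower (3.46%), and the falls among the 631 antisense RNAs, with 17 higher (2.69%) and 60 lower (9.51%). The largest rise was at SPNCRNA.1120, between ght8 and ght1, with 734, 775 and 812 normalized counts in snf22∆, against 5.86, 5.68 and 14.3 in WT (log2 fold change 6.53, SE 0.22, adjusted p = 2.21e-09). SPNCRNA.1318, which overlaps ght4 on the opposite strand, had 2008, 1639 and 1474 normalized counts in snf22∆, against 97.6, 119 and 86.9 in WT (log2 fold change 4.07, SE 0.15, adjusted p = 3.07e-09). The RNA meu3 rose by 3.28 (SE 0.25) and SPNCRNA.989 by 3.05 (SE 0.14), with no called coding gene next to either. SPNCRNA.769 (2.42 (SE 0.16)) overlaps SPAPB1A10.13 on the opposite strand, a coding gene that also rose (1.08 (SE 0.11)). Of the 45 rising RNAs, 10 (22.2%) overlapped or flanked a coding gene called higher and 9 (20.0%) one called lower, against 9.24% and 12.1% of all 1093 non-coding RNAs with a place in the annotation. Of the 76 placed RNAs that fell, 7 (9.21%) overlapped or flanked a coding gene called higher and 10 (13.2%) one called lower, close to those shares.

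The largest non-coding fall was at omt3, a meiosis-specific RNA upstream of mei2 on the other strand, with 14.0, 13.0 and 7.87 normalized counts in snf22∆, against 320.2, 589 and 537 in WT (log2 fold change -5.34, SE 0.37, adjusted p = 7.83e-07). The antisense RNA of the endocytosis gene end4 had 8.75, 13.0 and 27.5 normalized counts in snf22∆, against 466, 507 and 486 in WT (log2 fold change -4.90, SE 0.34, adjusted p = 7.82e-07), while end4 itself was at 0.39. The antisense RNA of epe1, an anti-silencing gene, had 14.0, 13.0 and 24.6 in snf22∆, against 162, 181 and 202 in WT (-3.40 (SE 0.24)). hop1-antisense-1, opposite a gene of meiotic chromosome axes, was at -2.67 (SE 0.14), and SPNCRNA.1626, opposite mbx2, had 1148, 975 and 908 normalized counts in snf22∆, against 4708, 8051 and 5549 in WT (-2.59 (SE 0.17)).

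The lower antisense RNAs fell into steady and spread ones. In 34 of the 60, the WT libraries were within 3-fold of each other; none of these overlapped between strains, and their summed normalized counts were 4480, 4520 and 4680 in snf22∆, against 15200, 20200 and 16200 in WT. In the other 26, the WT libraries differed by 3-fold or more, replicate 3 was the highest in both strains in all 26, and 13 overlapped between strains; within replicate numbers, 25 of the 26 were lower in snf22∆ in every pair, 12 of the 13 among them. The sums were 918, 1060 and 1960 in snf22∆, against 2050, 5560 and 10300 in WT. SPNCRNA.870, rps1601-antisense-1, cpc2-antisense-1 and SPNCRNA.1072 are of this kind. All 60 had already been called lower, and the 3-fold split was set after the values were seen. The sums and the counts of overlaps and pairs are therefore partly built in. They are no added support, and the shares over all non-coding RNAs are not given here. The sense partners of the spread ones were abundant, with a median mean count of 21600 in WT over the 20 that are named and tested, against 644 over 24 for the steady ones. The part of the sense reads in these values was not tested. Without the 26, 51 non-coding RNAs were called lower.

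**Figure D4:**
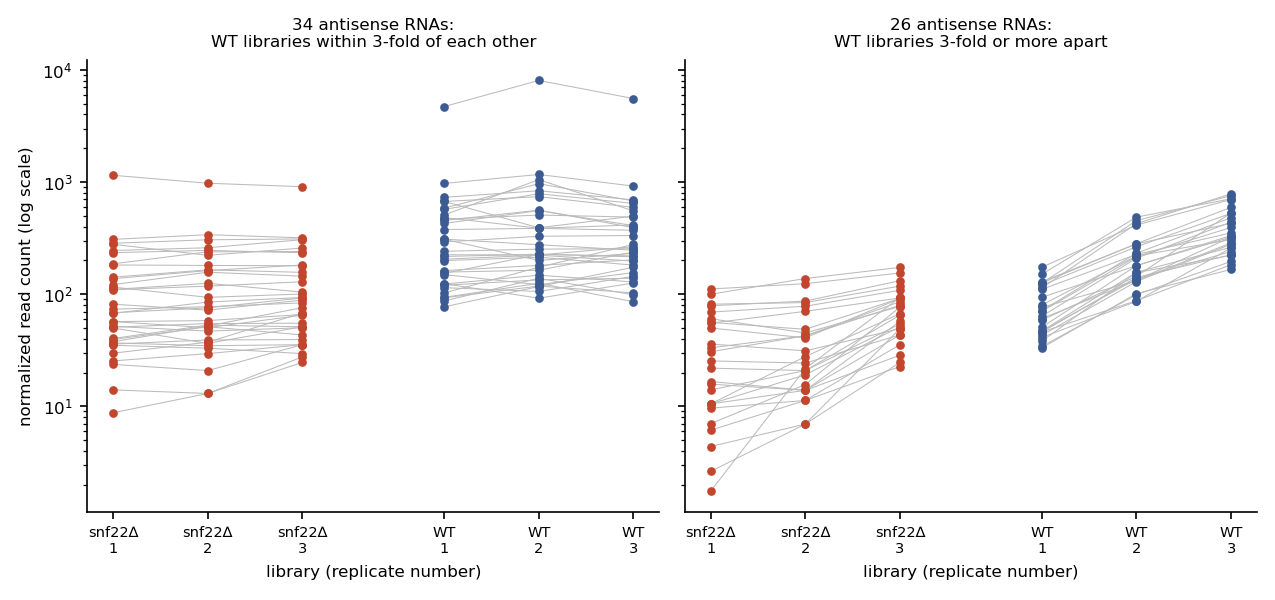
Normalized read count (log scale, vertical axis) of the antisense RNAs called lower, in each snf22∆ and WT library (horizontal axis, by replicate number; lines join the values of an RNA within a strain). The 34 RNAs in the left panel differ by less than 3-fold among the 3 WT libraries, up to 2.71-fold at sua1-antisense-1. The 26 in the right panel differ 3-fold or more among them, with replicate 3 highest in both strains.

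The deletion and the ATPase mutant were set side by side at the called genes. Of the 111 coding genes higher in snf22∆, 44 were also called higher in snf22-(D996A-E997A) against the same WT libraries. Of the 111 lower, 65 were also called lower there and 1, SPBPB21E7.08, was called higher (1.02). The comparisons share their WT libraries, so the overlap is no independent evidence. Both mutants also carry kanMX, which is not named for the WT, and its part in the overlap was not tested. By a direct test between the mutants, 77 of 4990 coding genes differed (1.54%), and 43 of the 222 genes called in snf22∆ were among them. That test uses the same snf22∆ libraries that picked the 222, so an excess over 1.54% is partly built in. gcd1 was higher in snf22∆ than in snf22-(D996A-E997A) by 4.71 (SE 0.16, adjusted p = 7.84e-09), rsv1 by 3.20 (SE 0.22, adjusted p = 1.71e-06) and gdt1 by 8.89 (SE 0.31, adjusted p = 7.84e-09). The gdt1 difference is larger than its rise over WT given above, so gdt1 in snf22-(D996A-E997A) lay below WT. It had few counts already in WT, so the size of this difference is uncertain. On the side of the falls, aes1 differed by -4.15 (SE 0.24, adjusted p = 5.49e-07), the4 by -2.74 (SE 0.13, adjusted p = 1.16e-07), mei2 by -1.75 (SE 0.10, adjusted p = 3.45e-07) and ste11 by -1.81 (SE 0.12, adjusted p = 1.79e-06), each lower in snf22∆. pho84 went the other way and was less reduced in the deletion, by 2.21 (SE 0.11, adjusted p = 1.16e-07). At pex7 the difference between the mutants was 0.02 (SE 0.08, adjusted p = 0.886) and at pho1 1.00 (SE 0.13, adjusted p = 4.89e-04), and neither met the thresholds.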

How the data were processed

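Raw read counts per gene were the deposited measurement, 1 column per library, without scaling. By the methods of the study, the authors made stranded poly(A)+ libraries, sequenced paired ends on a NovaSeq, mapped the reads on ASM294v2 (HISAT2 2.1.0) and took counts per gene from HTSeq 0.10.0; the strand setting and the treatment of reads with several matches are not given in the sources used here, so counts of overlapping genes and near-identical copies are uncertain. The authors' own DESeq2 tables hold log2 fold changes, p-values and group means, which were not used; only their gene names and product descriptions were.

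Groups came from the genotype labels. A gene was tested if 3 or more of 9 libraries held 10 or more of its counts, by edgeR 4.0.16 in R 4.3.3 (TMM scaling, glmQLFit and glmQLFTest, group as the only factor, all 9 libraries in 1 fit), with Benjamini-Hochberg adjustment over 6091 genes. The common biological coefficient of variation was 0.104. A call needed an adjusted p of at most 0.05, 2-fold and a mean normalized count of 100, as in the study's methods. Standard errors are the log2 fold change divided by the root of the F statistic. Alternatives were RLE scaling, DESeq2 1.42.0, a fit of 6 libraries, no count filter, a replicate block, leaving out each replicate, and the adjusted p alone. As a check of pairing, deviations from the group mean in snf22∆ and in WT correlated at 0.29, 0.23 and 0.47 within replicate numbers 1, 2 and 3, higher than across numbers, so the numbers were taken to pair these libraries on this check of the data.

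Gene order, strand and overlaps came from RefSeq for ASM294v3, a later build, so no coordinates or sequences are printed; 6836 IDs matched by locus tag, 12 by synonym and 140 not at all. A planned count of promoter motifs was not run for the same reason. The genes named were snf22 and its neighbors, the 15 largest rises and falls, up to 4 called members of each of 53 lists, 14 regulators (1 is not reported here), all members of runs, the 6 largest non-coding changes each way and the auxotrophic markers. These members and lists were chosen with earlier results of these data known. Other genes named, and the 3-fold split of antisense RNAs, were chosen after their values were seen.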

Additional observations from a re-analysis of the deposited data

How the results depend on the processing

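The count of coding genes higher in snf22∆, 111, ranged from 87 (without WT replicate 2) to 189 (without WT replicate 3) when a library was left out, and that of lower ones, 111, from 95 to 122; for non-coding RNAs the ranges were 41 to 55 (45 with all libraries) and 61 to 103 (77). By the adjusted p alone, 1671 coding genes were higher and 1230 lower. RLE scaling gave 96 higher and 120 lower, DESeq2 95 and 119, the fit of 6 libraries 111 and 111, and no count filter 113 and 109. With the replicate block, which uses the pairing by number, 113 coding genes were higher and 108 lower in the fit of 9 libraries, and 115 and 108 in that of 6; zrt1 was the only named gene whose call the block ended, at -0.998 on the log2 scale. The genes that differ from snf22-(D996A-E997A) have no value in fits without those libraries. Of 127 named genes that were called, 108 were called under all 12 settings run and 19 lost the call under at least 1, zrt1 most often (6). The named genes that changed sign were regulators near 0: without a library, the log2 fold change of pap1 ranged from -0.0944 to 0.0147 (above 0 without WT replicate 2) and the log2 fold change of rst2 from -0.0455 to 0.112 (below 0 without WT replicate 3, and at -0.0396 without WT replicate 1), and rst2 was at -0.0130 under RLE scaling and DESeq2. SPBPB2B2.06c, with fewer than 10 counts in each snf22∆ library, did not pass the count filter without any 1 of the WT libraries. The cause of these shifts was not tested. The median log2 fold change of all genes stayed between -0.014 and 0.028 under the 12 settings. With 3 libraries a strain, genes with few counts are the least certain.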

Other observations

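A further 34 coding genes were higher and 20 lower past the p and fold thresholds with mean normalized counts under 100. The genes SPAC186.04c, SPAC186.06 and SPAC750.01 were close to silent in WT. SPAC186.04c, a truncated channel gene, had 117, 109 and 101 reads in the snf22∆ libraries, against 0, 1 and 1 in WT. SPAC186.06, a member of the same phenazine biosynthesis family as aes1, had 98, 114 and 112 reads in snf22∆, against 4, 2 and 7 in WT, while aes1 fell. The aldo-keto reductase gene SPAC750.01 had 45, 104 and 68 reads in snf22∆, against 2, 3 and 3 in WT. The dynactin gene ssm4 had 45, 60 and 46 reads in snf22∆, against 14, 8 and 7 in WT, the meiotic septin gene spn6 had 93, 110 and 116, against 24, 33 and 49, and meu13 had 16, 9 and 11, against 1, 4 and 1. The repair polymerase gene pol4 had 112, 115 and 93 reads in snf22∆, against 18, 18 and 15 in WT.

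On the lower side, mfc1, for a copper transporter of the prospore membrane, had 30, 37 and 14 reads in snf22∆, against 66, 100 and 69 in WT, and mug37 had 10, 15 and 14, against 16, 27 and 53. SPBPB10D8.02c, an arylsulfatase gene next to the left-end run of chromosome II, had 4, 15 and 16 reads in snf22∆, against 78, 107 and 77 in WT, and fah1, for an amide hydrolase of the same end, had 2, 6 and 6, against 39, 31 and 27. The urea transporter genes SPBPB8B6.02c and SPAC869.03c had 10, 10 and 7 and 7, 2 and 4 reads in snf22∆, against 38, 33 and 20 and 12, 15 and 9 in WT, the same direction as the called urea transporter gene SPBC23G7.13c. These genes were picked after their values were seen, and their counts are too low for a firm size of change.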
